A study of Mus musculus with 10 samples.

Results

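Epithelial-mesenchymal transition (EMT) regulators were followed in mouse bladder RNA as a set of 10 genes, taken by gene symbol: the zinc finger repressors Zeb1, Zeb2, Snai1 and Snai2, the basic helix-loop-helix (bHLH) factors Twist1, Twist2 and Tcf4, the epithelial splicing regulators Esrp1 and Esrp2, and the intermediate filament gene Vim. They are 10 of the 55536 genes in the deposited count tables, and all 10 passed the filter on low counts in each of 3 comparisons. Bladder tissue of C57BL/6 mice was sequenced in 10 libraries, 4 from wild-type (WT) mice, 3 from OMD-/- mice and 3 from PRELP-/- mice, whose genotype field is spelled PRLEP-/-. OMD (osteomodulin) and PRELP are secreted small leucine-rich proteoglycans, and in both lines, by the study's methods, exons 2 and 3 of the gene were targeted with a knock-in of β-galactosidase, with no cell type driver named. The labels give neither age nor sex. They describe homogenised bladder tissue, while the study's text speaks of isolated epithelia. The labels do not tie libraries to animals, and the study's text gives group sizes other than those of the labels, so the p-values measure the spread between these libraries only.

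In EMT an epithelial cell loses its junctions and gains motility and a mesenchymal cytoskeleton. SNAI and ZEB proteins bind E2-box motifs in epithelial promoters, Cdh1 (E-cadherin) being the best known, and recruit corepressors, while TWIST proteins pair with E proteins such as TCF4, and ID proteins hold E proteins in inactive pairs. ESRP1 and ESRP2 keep many transcripts in their epithelial splice forms, and ZEB1 is known to repress both genes. Vimentin, the product of Vim, is the usual cytoskeletal marker of mesenchymal cells. Fibroblasts, endothelium and leukocytes of a normal bladder wall also make ZEB, TCF4 and vimentin.

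The motif through which SNAI and ZEB proteins act was looked for in the 250 bases before each annotated transcription start in the RefSeq promoter table (GRCm38.p6). The letters searched were CACCTG on either strand. Of the 10 genes, 5 are in that table (Zeb2, Snai1, Twist1, Twist2 and Vim, 8 windows). The motif was in 1 of the 8 windows, that of Snai1, against 17.2% of all 32851 windows. Among 24 epithelial genes known to be repressed in EMT, 16 were in the table, without Cdh1, and 14 of their 23 windows (60.9%) held the motif, in 12 of the genes. Some windows overlap, as those of Crb3 do. The genes were listed for their repression in EMT, so this share is no test of the motif. A match is a run of letters and was not measured as a bound site. These 3 windows show a member with the motif, a member without it, and an epithelial gene with 2 copies, in lower case with the motif or its reverse complement in capitals, each read 5′ to 3′ on the gene's strand. They are chr2:167537945-167538194 (plus strand, motif starting 126 bases before the start of Snai1), chr2:45117443-45117692 (minus strand, before Zeb2) and chr17:87635729-87635978 (plus strand, motifs starting 187 and 19 bases before the start of Epcam, which encodes an epithelial adhesion molecule).
Snai1: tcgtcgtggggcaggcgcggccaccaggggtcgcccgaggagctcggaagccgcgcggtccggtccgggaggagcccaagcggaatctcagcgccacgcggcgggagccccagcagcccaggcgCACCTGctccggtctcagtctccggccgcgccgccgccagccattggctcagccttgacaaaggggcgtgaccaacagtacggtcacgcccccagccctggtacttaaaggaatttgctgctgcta
Zeb2: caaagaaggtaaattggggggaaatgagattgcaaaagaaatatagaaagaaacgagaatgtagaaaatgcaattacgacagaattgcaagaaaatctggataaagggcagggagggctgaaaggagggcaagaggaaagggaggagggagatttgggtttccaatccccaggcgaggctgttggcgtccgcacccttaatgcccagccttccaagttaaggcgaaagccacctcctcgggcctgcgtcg
Epcam: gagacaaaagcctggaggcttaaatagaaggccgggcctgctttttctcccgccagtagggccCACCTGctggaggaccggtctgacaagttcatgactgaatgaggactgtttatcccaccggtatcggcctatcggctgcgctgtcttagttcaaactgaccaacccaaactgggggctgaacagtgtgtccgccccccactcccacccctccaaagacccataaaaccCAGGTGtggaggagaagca

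Total counts ran from 20391437 to 46269079 per library, WT replicate 1 being the deepest, and 3 counts, the limit under which a gene was taken as undetected, were worth 0.0598 to 0.170 CPM (counts-per-million, on TMM-scaled library sizes). These limits cover counting error only. The knocked-out gene checked the labels for PRELP-/-: Prelp had 214.6 to 316.7 CPM in WT and 1.84 to 4.20 CPM in PRELP-/-. In OMD-/- the same gene had 771 to 825 CPM, above every WT library, and rose by 1.59 on the log2 scale (SE 0.12, adjusted p = 1.28e-05). Omd was at the edge of detection, with 0, 1, 8 and 12 counts in WT, 5, 7 and 7 in PRELP-/- and 0 in each OMD-/- library, so it checks little. Some libraries stood apart. PRELP-/- replicate 1 differed from replicates 2 and 3 with gene length, by a median of 0.67 (log2 CPM) in genes with under 2 kb of exon and -0.81 in those over 10 kb. Transcripts of 4 Y chromosome genes summed to 188.4 and 163 CPM in WT replicates 1 and 2. In WT replicates 3 and 4 they summed to 0 and 0.044 CPM. In OMD-/- replicates 1, 2 and 3 the sums were 18.1, 0.805 and 0.730 CPM. In PRELP-/- replicates 1, 2 and 3 they were 119.9, 18.7 and 18.5 CPM. Libraries under 1 CPM were counted as without these transcripts. OMD-/- replicates 2 and 3 still held more of them than WT replicates 3 and 4. WT replicates 1 and 2, WT replicates 3 and 4, OMD-/- replicates 2 and 3 and PRELP-/- replicates 2 and 3 lay close to each other, though every pair differed by more than sampling noise. The markers of the labelled tissue were present, with summed umbrella cell markers (6 genes) at 8826 to 10569 CPM in WT, 11103 to 15040 CPM in OMD-/- and 12713 to 22364 CPM in PRELP-/-, and basal urothelial markers (6 genes) at 2536 to 3275, 3291 to 4507 and 3715 to 4979 CPM. Both sums were higher in every knockout library than in any WT library. Krt15 alone made up 1280 to 1554 CPM of the basal sum in WT, 1662 to 2304 CPM in OMD-/- and 1807 to 2478 CPM in PRELP-/-. Markers of the bladder wall were present too, with fibroblast markers (8 genes) between 8350 and 21619 CPM.

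For each knockout against WT, the quasi-likelihood test of edgeR was run on all genes, p-values were adjusted by the Benjamini-Hochberg method over the whole table, and a gene with an adjusted p under 0.05 was called. In OMD-/-, 5 of the 10 genes passed: Zeb1, Zeb2, Tcf4 and Vim rose and Esrp2 fell. The background was 29.4% of all 16647 genes tested, 14.3% higher and 15.1% lower. Of the 10 genes, 3 (Zeb2, Tcf4 and Vim) had every OMD-/- library above every WT library and 1 (Esrp2) had every one below, beside 38.9% of all genes without overlap, 19.2% above and 19.7% below. In PRELP-/- only Vim passed, and it rose, beside 7.29% of all 16581 genes, 1.40% higher and 5.89% lower. Groups did not overlap for 3 of the 10 genes, Snai2 and Vim above WT and Esrp2 below it, beside 30.0% of all genes, 13.6% above and 16.4% below. Without PRELP-/- replicate 1, 5 genes passed (Zeb2, Snai2, Tcf4, Esrp2 and Vim) beside 22.2% of all genes. The median log2 fold change of the 10 genes was 0.38 in OMD-/- and 0.21 in PRELP-/-, against medians of all genes of -0.0002 and 0.023. Both comparisons share the WT libraries. Scaling to total counts alone moved the median of all genes to -0.16 in OMD-/- and -0.20 in PRELP-/-, so every change is relative to the TMM scaling used. Under that scaling 1256 of 5539 called genes were higher in OMD-/- and 55 of 1772 in PRELP-/-, against 2377 of 4899 and 232 of 1209 with TMM.

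**Figure D1:**
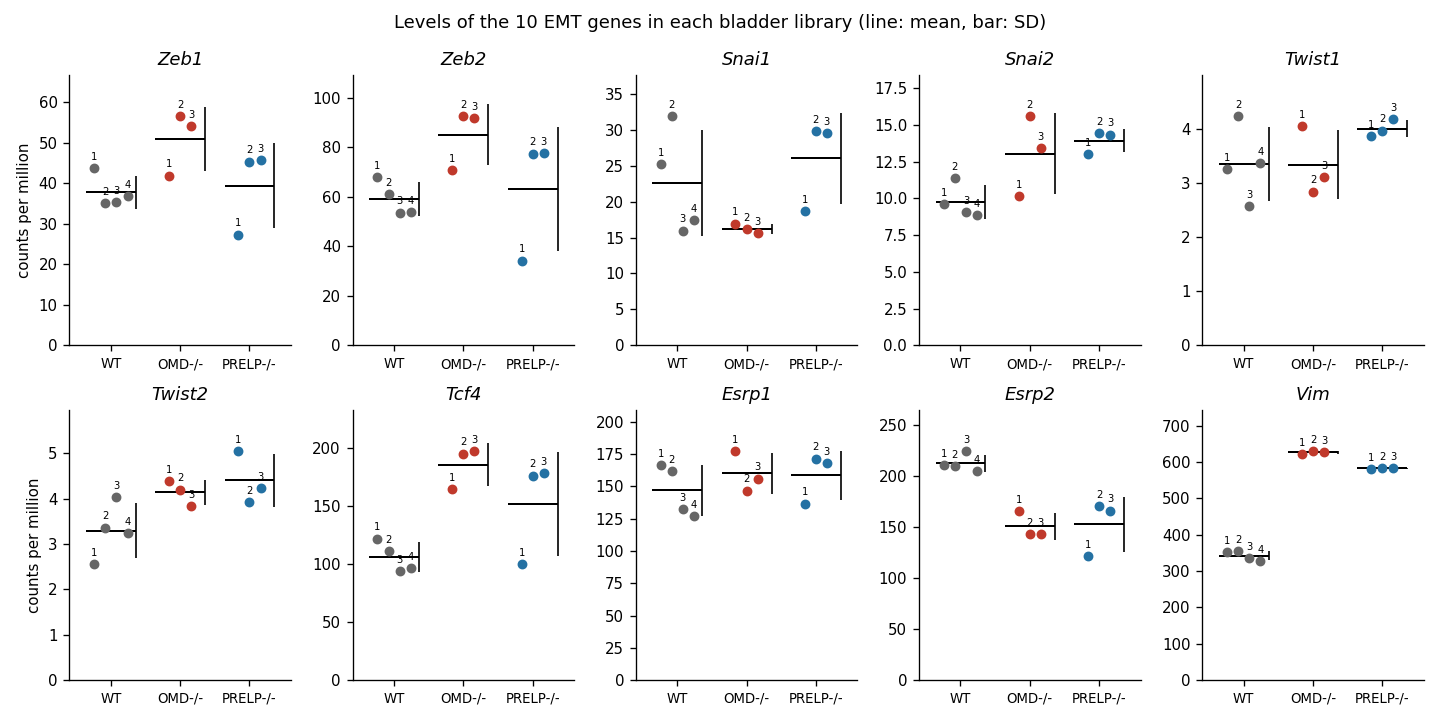
Level of each of the 10 genes in CPM (vertical axis, from 0), by group, with 1 numbered point per library, a line for the mean and a bar for the SD. All knockout libraries lie above all WT libraries for Vim and below them for Esrp2, and PRELP-/- replicate 1 is the lowest knockout library for Zeb1, Zeb2, Tcf4 and Esrp2.

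**Figure D2:**
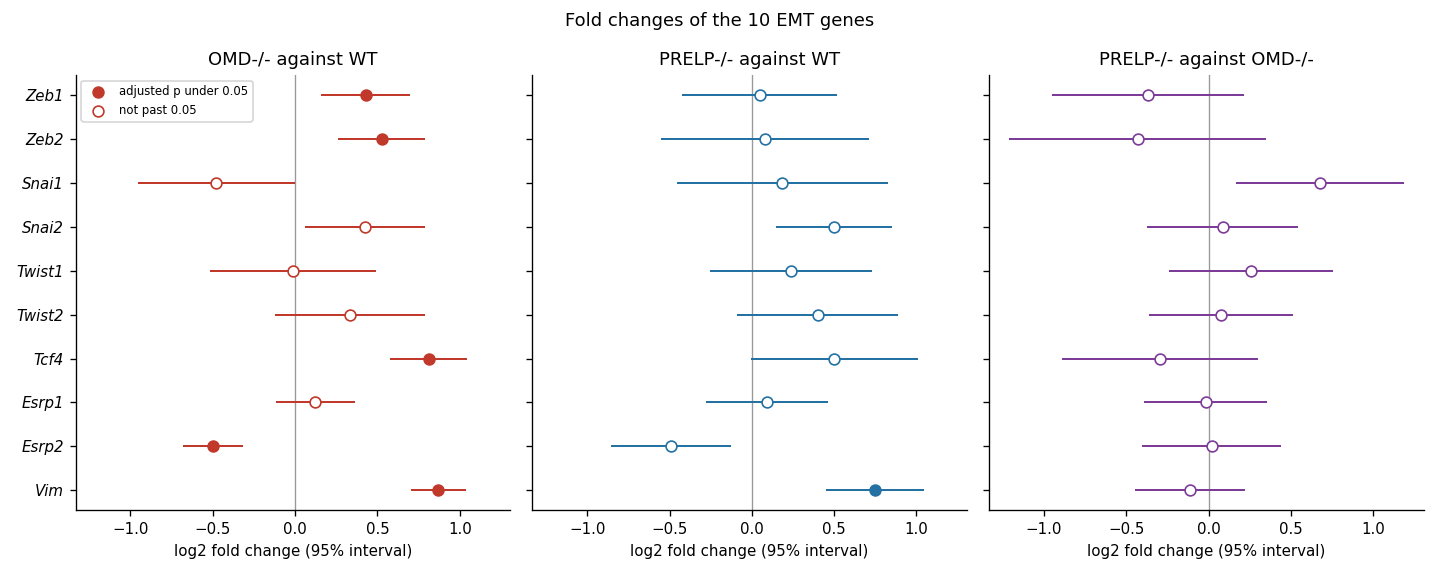
Log2 fold changes of the 10 genes with their 95% intervals in 3 panels, OMD-/- against WT, PRELP-/- against WT and PRELP-/- against OMD-/-, with filled points for an adjusted p under 0.05. The filled points are Zeb1, Zeb2, Tcf4, Esrp2 and Vim in the first panel, Vim in the second and none in the third.

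Levels were compared between genes per kilobase of annotated exon (CPM per kb, RPKM). In WT bladder Vim was the highest at 72.3 ± 2.8 RPKM (SD, n = 4), followed by Esrp2 at 49.0 ± 2.0 and Esrp1 at 23.3 ± 3.2. Among the transcription factors Snai1 stood first at 14.0 ± 4.6 RPKM, Snai2 at 4.81 ± 0.57, Tcf4 at 3.87 ± 0.48, Zeb1 at 3.67 ± 0.39, Zeb2 at 2.96 ± 0.34, Twist1 at 2.06 ± 0.42 and Twist2 at 1.04 ± 0.19. The WT libraries of Snai2 and Tcf4 overlapped, as did those of Tcf4 and Zeb1, while all other neighbours in this order were apart. In OMD-/- Tcf4 (6.78 ± 0.67 RPKM, n = 3) stood level with Snai2 (6.46 ± 1.36), and in PRELP-/- Snai2 (6.88 ± 0.39, n = 3) was above Tcf4 (5.54 ± 1.63), with overlapping libraries in both. Exon length here is that of all annotated isoforms together, so a gene with many isoforms such as Tcf4 (27382 bases of exon) has its level per length set low.

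The ZEB repressors were higher in OMD-/- bladders. Zeb2, at chr2:44983632-45117395, had 67.9, 61.0, 53.7 and 53.8 CPM in the WT libraries, 70.8, 92.7 and 91.8 CPM in the OMD-/- libraries and 34.2, 77.5 and 77.6 CPM in the PRELP-/- libraries, in the order of their numbers here and for every gene. Every OMD-/- library was above every WT library, and PRELP-/- replicate 1 was below all others. Zeb2 rose in OMD-/- by 0.53 on the log2 scale (SE 0.12, adjusted p = 0.00809), a call lost with all 3 groups in one fit (adjusted p = 0.181) or with close pairs of libraries summed (0.116). In PRELP-/- the log2 fold change was 0.08 (SE 0.28, adjusted p = 0.877), and without replicate 1 it was 0.40 (adjusted p = 0.0278). Zeb1, on chromosome 18, had 43.7, 35.0, 35.4 and 36.8 CPM in WT, 41.9, 56.5 and 54.0 CPM in OMD-/- and 27.2, 45.2 and 45.7 CPM in PRELP-/-. OMD-/- replicate 1 lay inside the WT range and the other two above it. Zeb1 rose in OMD-/- by 0.43 (SE 0.12, adjusted p = 0.0236), a call that was lost in 7 of 17 alternatives: without WT replicate 3 (adjusted p = 0.0568), OMD-/- replicate 2 (0.110) or OMD-/- replicate 3 (0.0999), with total counts as the scale (0.27, adjusted p = 0.141), with all 3 groups in one fit (0.154), with the replicate block (0.0750) and with close pairs of libraries summed (0.214). Its log2 fold change in PRELP-/- was 0.05 (SE 0.21, adjusted p = 0.905). Within each library Zeb2 exceeded Zeb1 in CPM by a log2 ratio of 0.55 to 0.80 in WT, 0.71 to 0.76 in OMD-/- and 0.33 to 0.78 in PRELP-/-, so the ratio of both paralogs did not separate the groups. Leukocyte and fibroblast markers moved in the same libraries. The summed leukocyte markers (8 genes) were 589 to 651 CPM in WT and 809, 1476 and 1518 CPM in OMD-/-, where 5 of the 8 rose, beside 14.3% of all genes. They were 520, 855 and 812 CPM in PRELP-/-, where 0 of the 8 passed, 6 were higher and 2 lower (Lyz2, -0.72, and Ptprc, -0.59). Cd74 alone made up 298 to 347 CPM of the sum in WT and 548, 946 and 970 CPM in OMD-/-. The part of leukocytes and fibroblasts in the ZEB values was not tested, and in whole tissue more RNA per cell and more cells of a type cannot be told apart.

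The SNAI repressors gave no call in either knockout. Snai1, at chr2:167538195-167542814, encodes the zinc finger repressor that usually acts early in EMT. It had 25.2, 31.9, 15.9 and 17.4 CPM in WT, 17.0, 16.2 and 15.6 CPM in OMD-/- and 18.7, 29.8 and 29.5 CPM in PRELP-/-. The WT libraries fell into a high and a low pair, the high pair being the one with Y chromosome transcripts, and the OMD-/- libraries lay at the level of the low pair. The log2 fold change of Snai1 was -0.48 in OMD-/- (SE 0.21, adjusted p = 0.119), and the test passed in 3 of 17 alternatives, without WT replicate 3 (-0.62, adjusted p = 0.0416), with total counts as the scale (-0.64, adjusted p = 0.0410) and with the replicate block (-0.54, adjusted p = 0.0442). In the libraries with under 1 CPM of Y chromosome transcripts, WT replicates 3 and 4 against OMD-/- replicates 2 and 3, it was -0.07 (adjusted p = 0.626). In PRELP-/- it was 0.19 (SE 0.28, adjusted p = 0.705). Snai2, at chr16:14705852-14709385, had 9.59, 11.4, 9.08 and 8.85 CPM in WT, 10.1, 15.6 and 13.4 CPM in OMD-/- and 13.0, 14.4 and 14.3 CPM in PRELP-/-. All PRELP-/- libraries were above all WT libraries, while OMD-/- replicate 1 was inside the WT range. The log2 fold change of Snai2 was 0.43 in OMD-/- (SE 0.17, adjusted p = 0.0745) and 0.50 in PRELP-/- (SE 0.16, adjusted p = 0.0875). Snai2 passed in 4 of 17 OMD-/- alternatives, 2 of them without WT replicate 2 (0.50, adjusted p = 0.0479) or OMD-/- replicate 1 (0.59, adjusted p = 0.0184). The others were limma-voom (0.57, adjusted p = 0.00830) and the libraries without Y chromosome transcripts (0.70, adjusted p = 0.000281). In PRELP-/- Snai2 passed in 3 of 16, among them without PRELP-/- replicate 1 (0.57, adjusted p = 0.0184). The log2 ratio of Snai1 to Snai2 in CPM was 0.81 to 1.49 in WT, 0.05 to 0.74 in OMD-/- and 0.52 to 1.05 in PRELP-/-, lower in each OMD-/- library than in any WT library.

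Of the 3 bHLH genes, Tcf4 passed in OMD-/- and none passed in PRELP-/-. Tcf4, on chromosome 18, encodes the E protein also called E2-2, and is not the gene of the Wnt factor of the same nickname. It had 122, 111, 94.0 and 96.7 CPM in WT, 165, 195 and 198 CPM in OMD-/- and 100, 176 and 178 CPM in PRELP-/-. Every OMD-/- library was above every WT library, and 2 of 3 PRELP-/- libraries were. Tcf4 rose in OMD-/- by 0.81 on the log2 scale (SE 0.11, adjusted p = 0.000430) and passed under all 17 alternatives. In PRELP-/- its log2 fold change was 0.50 (SE 0.22, adjusted p = 0.190), and without replicate 1 it was 0.75 (adjusted p = 0.00239). Twist1, at chr12:33957671-33959829, a master regulator of mesoderm and neural crest, had 2.57 to 4.23 CPM in WT, 2.84 to 4.05 CPM in OMD-/- and 3.86 to 4.18 CPM in PRELP-/-. In OMD-/- it differed from WT by -0.01 on the log2 scale (SE 0.23, adjusted p = 0.977) and in PRELP-/- by 0.24 (SE 0.22, adjusted p = 0.514). Twist2, at chr1:91801461-91848028, had 2.55 to 4.03 CPM in WT, 3.84 to 4.38 CPM in OMD-/- and 3.92 to 5.05 CPM in PRELP-/-, and its log2 fold change was 0.34 in OMD-/- (SE 0.21, adjusted p = 0.246) and 0.40 in PRELP-/- (SE 0.22, adjusted p = 0.269). The antisense gene Gm29100 covers 46.5% of Twist2 exon bases at under 0.4 CPM in each group mean, and since the strand setting of the counting was not given in the sources used here, the level of Twist2 is uncertain to that extent.

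The 4 ID inhibitors fell in OMD-/-, where 15.1% of all genes fell. Each passed, with log2 fold changes of -0.93 for Id1 (SE 0.092, adjusted p = 7.69e-05), -0.74 for Id4, -0.59 for Id3 and -0.48 for Id2, and a median of -0.66. Id1 had 152, 164, 167 and 181 CPM in WT, 96.8, 85.2 and 80.3 CPM in OMD-/- and 174, 118 and 117 CPM in PRELP-/-. OMD-/- libraries lay below all WT libraries for each of the 4 genes, as for 19.7% of all genes. In PRELP-/- none of the 4 passed at an adjusted or an unadjusted p under 0.05, with log2 fold changes from -0.37 (Id4) to 0.003 (Id3). Without PRELP-/- replicate 1, Id1 (-0.49, adjusted p = 0.00771) and Id2 (-0.42, adjusted p = 0.0259) fell, as did 1972 of all 17120 genes tested.

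Esrp2 fell in OMD-/-, and Esrp1 passed in neither knockout. Both encode RNA-binding proteins that select epithelial exons, in transcripts such as Fgfr2 and Cd44. Esrp2, at chr8:106130319-106136974, had 211, 210, 225 and 205 CPM in WT, 166, 143 and 143 CPM in OMD-/- and 122, 171 and 166 CPM in PRELP-/-. Every knockout library was below every WT library. Esrp2 fell in OMD-/- by 0.50 on the log2 scale (SE 0.081, adjusted p = 0.00142), and of 17 alternatives the call was lost in 1, close pairs of libraries summed (adjusted p = 0.0899). In PRELP-/- the log2 fold change was of the same size, -0.49 (SE 0.16), with an adjusted p of 0.0968, and without replicate 1 it was -0.33 (adjusted p = 0.0183). Esrp1, at chr4:11331933-11386783, had 166, 162, 133 and 127 CPM in WT, 177, 147 and 156 CPM in OMD-/- and 137, 171 and 168 CPM in PRELP-/-, with overlapping groups. Its log2 fold change was 0.12 in OMD-/- (95% interval -0.12 to 0.36, adjusted p = 0.429) and 0.09 in PRELP-/- (95% interval -0.28 to 0.46, adjusted p = 0.745). In OMD-/- Esrp1 passed with Y chromosome transcripts as a covariate (0.21, adjusted p = 0.0258) and in the libraries without them (0.22, adjusted p = 0.00561), where WT replicates 3 and 4 stood against OMD-/- replicates 2 and 3. With total counts as the scale both Esrp1 values turned below 0 (-0.04 and -0.12).

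The ratio of the 2 paralogs within a library needs no scaling between libraries. The log2 ratio of Esrp2 to Esrp1 in CPM was 0.34, 0.38, 0.76 and 0.69 in WT, -0.10, -0.03 and -0.13 in OMD-/- and -0.17, -0.004 and -0.02 in PRELP-/-. WT replicates 1 and 2 lay nearer to the knockouts than replicates 3 and 4, and no library of a knockout reached a WT library. An exact permutation test of 4 against 3 libraries cannot go below a two-sided p of 0.0571, so no test was made of the ratios. The log2 ratio of summed Zeb1 and Zeb2 to summed Esrp1 and Esrp2 was -2.01 to -1.76 in WT, -1.61, -0.96 and -1.04 in OMD-/- and -2.07, -1.48 and -1.44 in PRELP-/-. All OMD-/- libraries were above WT, and PRELP-/- replicate 1 was below it.

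Esrp2 shares exon bases with genes on the other strand. Nfatc3 overlaps 219 bases (5.05% of Esrp2 exon) and 1810019D21Rik overlaps 119 bases (2.74%). 1810019D21Rik had mean levels of 86.3 ± 7.4 CPM in WT, 21.1 ± 0.9 CPM in OMD-/- and 17.8 ± 2.2 CPM in PRELP-/-, and Nfatc3 90.5 ± 13.5, 107.9 ± 6.6 and 102.3 ± 18.7 CPM. Reads of overlapping genes can be told apart only if strand was used in the counting, which the sources used here do not say, and the part of this neighbour in the Esrp2 values was not tested.

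**Figure D3:**
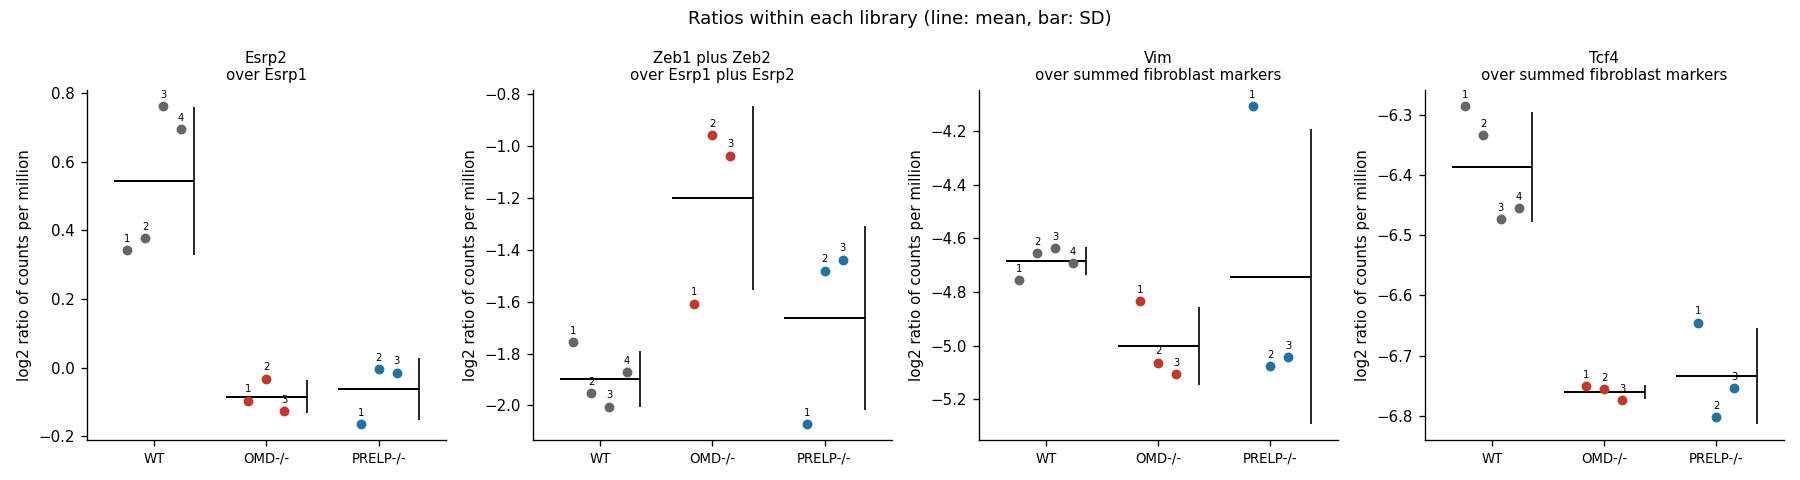
Log2 ratios of CPM within each library (vertical axes, each with its own range) for Esrp2 over Esrp1, both Zeb genes over both Esrp genes, Vim over 8 summed fibroblast markers and Tcf4 over the same markers, with numbered points per library, a line for the mean and a bar for the SD. In the first and last panels every knockout library lies below every WT library, where the last has the collagens in its sum.

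Other splicing regulators were called about as often as genes in general in OMD-/-. Of 17 listed, 16 were in the files and 15 were tested. In OMD-/- 2 rose (Khdrbs3, 0.53, and Rbm47, 0.40, an RNA-binding protein of epithelia) and 3 fell (Ptbp2, -2.19, Srsf1, -0.66, and Mbnl2, -0.30), 5 of 15 beside 29.4% of all genes. In PRELP-/- Ptbp2 (-2.52, SE 0.33, adjusted p = 0.00368) and Srsf1 (-0.58, SE 0.15, adjusted p = 0.0480) fell, beside 5.89% of all genes, and none rose. Ptbp2, the neuronal paralog of the polypyrimidine tract binding protein, had 15.9, 17.2, 25.2 and 32.9 CPM in WT, 3.39, 6.27 and 5.30 CPM in OMD-/- and 2.67, 4.44 and 4.82 CPM in PRELP-/-. Its knockout libraries all lay far below its WT libraries. Of 10 genes known to have ESRP-regulated exons, 2 rose in total count in OMD-/- (Cd44, 0.51, a hyaluronan receptor, and Ctnnd1, 0.39, p120 catenin) and 3 fell (Scrib, -0.40, Slk, -0.40, and Fgfr2, -0.36), beside 14.3% and 15.1% of all genes, while none passed in PRELP-/- (7.29% of all genes), where 4 had an unadjusted p under 0.05. These are counts per gene and do not show which exons were used.

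Vim rose in both knockouts, and in this fit its log2 fold change was the largest of the 10 genes in each. That of Tcf4 was larger in 4 of 17 OMD-/- alternatives (as with limma-voom, 0.94 against 0.89) and in 1 of 16 in PRELP-/- (limma-voom, 0.81 against 0.78). Vim, at chr2:13573927-13582826, had 352, 355, 336 and 328 CPM in WT, 622, 631 and 628 CPM in OMD-/- and 581, 583 and 584 CPM in PRELP-/-. The knockout libraries formed narrow bands far above WT. Vim rose by 0.87 in OMD-/- (SE 0.075, adjusted p = 3.22e-05) and by 0.75 in PRELP-/- (SE 0.13, adjusted p = 0.0125). The OMD-/- call held under all 17 alternatives. The PRELP-/- call held under 10 of 16. On leaving out WT replicate 3, WT replicate 4, PRELP-/- replicate 2 or PRELP-/- replicate 3 the adjusted p was 0.0592, 0.0520, 0.0567 and 0.0515, with log2 fold changes of 0.73, 0.72, 0.75 and 0.74. The call was also lost with the replicate block and with close pairs of libraries summed. The largest adjusted p of Vim under any PRELP-/- alternative was 0.511. Of 8 partners of vimentin filaments, Dst (a linker of filaments to junctions and other cytoskeleton) fell in OMD-/- by 0.76 (SE 0.12, adjusted p = 0.00140), 1 of 8 beside 29.4% of all genes, and none passed in PRELP-/-, where 2 had an unadjusted p under 0.05.

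Summed fibroblast markers were higher in the knockouts, mostly through 3 collagens. The summed CPM of 8 markers was 8350 to 9516 in WT, 17730, 21088 and 21619 in OMD-/- and 10016, 19672 and 19248 in PRELP-/-. In OMD-/- 5 of the 8 rose, beside 14.3% of all genes, namely Col1a1, Col1a2 and Col3a1, which encode fibrillar collagens, Pdgfra (1.12), a growth factor receptor, and Pi16 (0.68). Decorin (Dcn, 0.33), lumican (Lum, 0.03) and Dpt (-0.66) did not pass there. In PRELP-/- Col1a1 and Col1a2 rose, 2 of 8 beside 1.40% of all genes, while Dcn (0.17), Lum (-0.40) and Dpt (-1.42) did not pass. The log2 ratio of Vim to the sum of all 8 was -4.76, -4.66, -4.64 and -4.69 in WT, -4.83, -5.06 and -5.11 in OMD-/- and -4.11, -5.08 and -5.04 in PRELP-/-, lower in 5 of 6 knockout libraries than in any WT library and higher in PRELP-/- replicate 1. Against the 5 markers other than collagens, the ratio was -2.65, -2.53, -3.12 and -3.13 in WT, -2.31, -2.46 and -2.48 in OMD-/- and -1.76, -2.54 and -2.55 in PRELP-/-. All OMD-/- libraries and PRELP-/- replicate 1 were then above WT, so the direction of this ratio turned with the markers in the sum. The ratio of Tcf4 to all 8 was -6.47 to -6.29 in WT, -6.77 to -6.75 in OMD-/- and -6.80 to -6.65 in PRELP-/-, lower in all 6 knockout libraries. Against the 5 it was -4.95 to -4.19, -4.22 to -4.15 and -4.29 to -4.26, with overlapping groups for both knockouts. Summed endothelial markers (7 genes) were 416, 423, 211 and 196 CPM in WT, 472 to 554 CPM in OMD-/- and 324 to 534 CPM in PRELP-/-. None of the 7 rose in OMD-/- and 1, Egfl7, fell (-1.14, adjusted p = 0.000244), beside 14.3% and 15.1% of all genes, with 6 at an unadjusted p under 0.05. Called or not, 6 of the 7 were higher and 1 lower in each knockout. The median log2 fold change was 0.73 in OMD-/- and 0.46 in PRELP-/-. None passed in PRELP-/-, beside 7.29% of all genes, with 2 at an unadjusted p under 0.05. Smooth muscle markers (8 genes) summed to 335 to 1385 CPM in WT, 417 to 839 CPM in OMD-/- and 255 to 271 CPM in PRELP-/-, and no single one passed in OMD-/- or PRELP-/-, with 0 and 8 at an unadjusted p under 0.05. The part of these cell types in the values of Vim, Tcf4 and the ZEB genes was not tested, and their share in the tissue and their RNA per cell cannot be told apart.

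Mesenchymal genes known to be induced in EMT, listed without Vim, rose in OMD-/- in 12 of 21 cases, beside 14.3% of all genes, and none fell. The median over the list was 0.68 on the log2 scale. The largest were Col1a1 (1.58), Col1a2 (1.43), Sparc (1.30) and Col3a1 (1.21), the genes of fibrillar collagens and a matrix protein that binds them, of which the 3 collagens are also on the fibroblast list. Cdh2 (N-cadherin), the cadherin usually gained in EMT, differed by 0.66 on the log2 scale, with SE 0.23 and an adjusted p of 0.0522. Called or not, 17 of the 21 were higher in OMD-/- and 4 lower. Among the lower, Fap (-1.45, SE 0.52, adjusted p = 0.0569) had every OMD-/- library below every WT library. In PRELP-/- 3 of 21 rose, Col1a1 (1.31), Col1a2 (1.13) and Sparc (0.93), with a median of 0.19, beside 1.40% of all genes. Without replicate 1, 7 of 21 rose, beside 1835 of all 17120 genes tested. The list was chosen with earlier results of these data known, and the part of fibroblasts in its values was not tested.

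Epithelial genes known to be repressed in EMT were called no more often than genes in general. Of 24 listed, 23 were tested. In OMD-/- 2 rose, Cdh1 (0.40, SE 0.095, adjusted p = 0.00968) and Krt18 (0.35), and 3 fell, the polarity gene Crb3 (-0.47), the tricellular junction gene Marveld2 (-0.32) and Llgl2 (-0.27), 5 of 23 beside 29.4% of all genes. Of the umbrella cell markers 3 of 6 rose in OMD-/- (Upk2, 0.52, Upk1a, 0.45, and Krt18 itself), beside 14.3% of all genes, and 1 in PRELP-/- (Upk2, 0.68), beside 1.40%. Of the 5 basal markers tested in OMD-/- 1 rose, Krt15 (0.40), beside 14.3% of all genes. Called or not, 2 of the 5 were higher and 3 lower than in WT, with a median of -0.05. The part of these cells in the values of Cdh1 and Krt18 was not tested. Cdh1 had 714, 691, 613 and 578 CPM in WT, 922, 813 and 843 CPM in OMD-/- and 413, 912 and 896 CPM in PRELP-/-. PRELP-/- replicate 1 was the lowest of all libraries and the other two were above WT. None of the 23 passed in PRELP-/- (7.29% of all genes), and 3 had an unadjusted p under 0.05. Without replicate 1, 3 of 23 rose, Cdh1 (0.49), Krt18 (0.44) and Rab25 (0.33), beside 1835 of all 17120 genes tested. Epcam, whose promoter is printed with that of Snai1, differed by 0.02 on the log2 scale (95% interval -0.16 to 0.19) in OMD-/- and 0.01 (-0.32 to 0.34) in PRELP-/-. Of 11 epithelial transcription factors, Grhl2 (-0.39), Grhl1 (-0.31) and Klf5 (-0.29) fell in OMD-/- and Elf3 (0.32) rose, 4 of 11 beside 29.4% of all genes, and none passed in PRELP-/-, where 3 had an unadjusted p under 0.05. Called or not, 9 of these 11 were lower and 2 higher in OMD-/-, and 10 were lower and 1 higher in PRELP-/-. The log2 ratio of Vim to Cdh1 was -1.02 to -0.82 in WT, -0.57 to -0.37 in OMD-/- and 0.49, -0.64 and -0.62 in PRELP-/-, higher in each knockout library than in any WT library.

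Of 11 tested among 13 other EMT transcription factors, Sox9 (0.62) and Sox4 (0.45) rose in OMD-/- and Klf8 (-0.69) fell, 3 of 11 beside 29.4% of all genes, with none in PRELP-/- (1 at an unadjusted p under 0.05) and Sox9 without replicate 1 (0.86, adjusted p = 0.0118). Of 14 corepressors through which SNAI and ZEB act, Ezh2, the polycomb methyltransferase, fell in OMD-/- by 0.47 (SE 0.12, adjusted p = 0.0118), 1 of 14 beside 29.4% of all genes, and none passed in PRELP-/- (2 at an unadjusted p under 0.05). Without PRELP-/- replicate 1, where 22.2% of all genes passed, Ezh2 fell by 0.51 and Limd1 rose by 0.30.

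**Figure D4:**
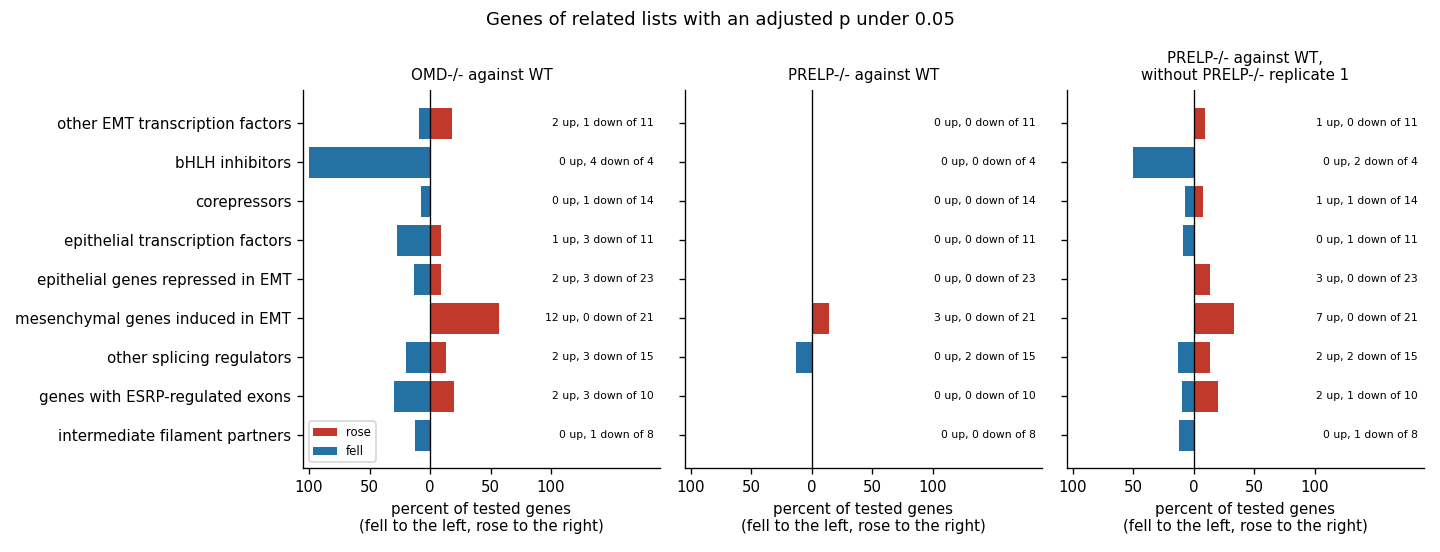
Share of tested genes in 9 related lists with an adjusted p under 0.05 (horizontal axis in percent, rose to the right and fell to the left, counts printed at the side), for OMD-/- against WT, PRELP-/- against WT, and the latter without PRELP-/- replicate 1. In OMD-/- all 4 bHLH inhibitors fell and 12 of 21 mesenchymal genes rose, while in PRELP-/- 3 mesenchymal genes rose and 2 splicing regulators fell.

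Both knockouts were also compared with each other. Of all 15805 genes tested 0.00633% passed, a single gene, Prelp itself, and 43 passed with the replicate number as a block. None of the 10 EMT genes passed in edgeR's quasi-likelihood test or in DESeq2, and 1, Snai1, had an unadjusted p under 0.05. Snai1 was higher in every PRELP-/- library than in any OMD-/- library (6.38% of all genes), with a log2 difference of 0.68 (SE 0.21, 95% interval 0.17 to 1.19, adjusted p = 0.690), and it passed without PRELP-/- replicate 1 (0.87, adjusted p = 0.0148). Vim was lower in every PRELP-/- library than in any OMD-/- library (8.72% of all genes), by a log2 difference of -0.11 (95% interval -0.45 to 0.22). The other intervals were wide, as for Zeb2 (-0.43, -1.21 to 0.35), Zeb1 (-0.37, -0.95 to 0.22) and Tcf4 (-0.30, -0.89 to 0.30). They were narrower for Esrp1 (-0.02, -0.39 to 0.36) and Esrp2 (0.02, -0.41 to 0.44). A call in OMD-/- and none in PRELP-/- was therefore not shown to be a difference between both knockouts for any of the 10 genes in this fit.

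PRELP-/- replicate 1 differed from replicates 2 and 3 in the way gene length did. Its log2 CPM minus the mean of the other two was -1.18 for Zeb2, -0.82 for Tcf4 and -0.74 for Zeb1, the 3 members with over 10 kb of exon, beside a median of -0.81 over 1397 genes of that length. It was -0.31 for Esrp1 (5 to 10 kb, median -0.33), and -0.47 for Esrp2, -0.006 for Vim, 0.31 for Twist2 and -0.14 for Snai2 (2 to 5 kb, median 0.18). The shortest, Twist1 and Snai1, were at -0.07 and -0.67, below the median of 0.67 of genes under 2 kb. The part of this library's length pattern in the PRELP-/- values was not tested beyond leaving it out.

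**Figure D5:**
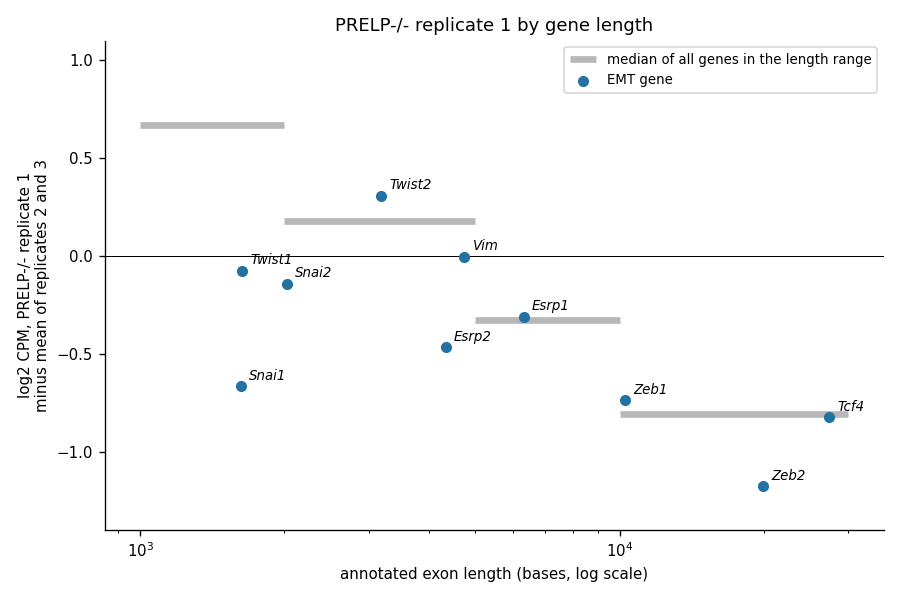
Difference in log2 CPM between PRELP-/- replicate 1 and the mean of replicates 2 and 3 (vertical axis) against annotated exon length in bases (horizontal log axis), with a point per EMT gene and grey bars for the median of all genes in 4 length ranges, the outer ranges drawn cut off. Zeb1, Tcf4 and Zeb2 lie lowest at the long end, where the median is -0.81.

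The genes with the most similar profile were taken as those with the smallest root mean square difference in log2 CPM, each gene centred on its own mean, over the 10 libraries and 15595 genes. Tcf4 was closest to Bicc1, Nid1 and Dkk3 (0.051, 0.058 and 0.079, against its own deviation of 0.42). Zeb1 was closest to Swap70, Mr1 and Cdh11 (0.080, 0.084 and 0.089, against 0.30), and Zeb2 to Parp14, Pde4b and Flrt3 (0.062, 0.063 and 0.063, against 0.41). Vim was closest to Ces2g, Rpn2 and Aldh18a1 (0.059, 0.062 and 0.069, against 0.40). Esrp1 was closest to Crat, Nup50 and Galm (0.050, 0.056 and 0.059, against 0.16), and Esrp2 to Map4k3, Spire1 and Arvcf (0.063, 0.072 and 0.073, against 0.28). These profiles share libraries, depth and the length pattern of PRELP-/- replicate 1.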

How the data were processed

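RNA was poly(A)-selected and made into strand-specific libraries with molecular identifiers. The authors deposited whole-number read counts per gene for each library, without normalization. The file headers name HISAT2 and featureCounts, and the submitters' processing notes name STAR 2.5.2b, featureCounts and the build GRCm38 (and hg38). Use of the identifiers and strand in counting is not given in the sources used here. Their DESeq2 comparison tables (fold changes and p-values) were not used.

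Gene symbols, exon lengths and coordinates came from GENCODE vM21 (GRCm38), which matched all 55536 identifiers. Counts were analysed in R 4.3.3 with edgeR 4.0.16 (TMM, filterByExpr, robust two-sided quasi-likelihood test on the 2 groups compared, Benjamini-Hochberg adjustment, threshold 0.05), with limma 3.58.1 and DESeq2 1.42.0 as alternatives. CPM uses TMM-scaled library sizes, and log2 CPM a prior count of 2. The fit was tested on simulated data. The 10 members and the lists were chosen with earlier results of these data known. Named were all members, in each list up to 4 called genes with the largest change, the 3 nearest profiles of 6 members, and Omd and Prelp. Epcam, Cdh2, Fap, Llgl2, Mbnl2, Fgfr2, Pi16, Dcn, Lum, Dpt, the ratios within a library, and list genes without PRELP-/- replicate 1 were added after their values were seen. Deviations of same-numbered PRELP-/- and OMD-/- libraries correlated (r = 0.303, 0.181 and 0.148), and 3 of 6 libraries correlated best with their own number. The labels do not pair libraries, so the reported fits had no block, and the replicate block was run only as an alternative. Alternatives were other scaling, filters and tests, all groups in one fit, the replicate block, Y chromosome transcripts, leaving out each library, and, added after seeing the data, the lists without PRELP-/- replicate 1, close pairs of libraries summed and the fibroblast sum without collagens.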

Additional observations from a re-analysis of the deposited data

Results flagged for a closer look

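Among 33 sets of 4 WT values checked for a library far from the rest, 1 stood out: the total count of WT replicate 1, 46269079 against 20391437 to 21342576 in the other WT libraries (its gap to the nearest was 0.963 of the whole range). Chance alone sets apart about 1 set in 20. No level of the 10 genes in WT was set apart in this way, and none of them passed in the comparison of both knockouts.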

How the results depend on the processing

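With edgeR's size factors (RLE), no filter on low counts or DESeq2, 5 genes passed in OMD-/-, as in the reported fit. The count was 3 with all 3 groups in one fit and 2 with close pairs of libraries summed (Tcf4 and Vim). In PRELP-/-, where 1 passed, the count was 3 with DESeq2, 8 with limma-voom and quality weights, 2 with all 3 groups in one fit, 0 with close pairs summed, and 0 to 5 on leaving out 1 library. Between both knockouts it was 1 with limma-voom and 0 to 1 on leaving out 1 library. The cause of these shifts was not tested. Over all genes the PRELP-/- calls numbered 1209 as reported, 2925 with DESeq2, 6963 with limma-voom, 2485 with all groups in one fit, 13 with close pairs summed and 475 to 3807 on leaving out 1 library. The OMD-/- calls numbered 4899, 2485 with all groups in one fit, 1658 with close pairs summed, 8989 with only libraries without Y chromosome transcripts and 2951 to 4850 on leaving out 1 library. No PRELP-/- library had under 1 CPM of these transcripts, so that alternative was not run there.

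Same-numbered libraries of WT and a knockout did not deviate together (r from -0.10 to 0.14), and 3 and 2 of 6 libraries correlated best with their own number in OMD-/- and PRELP-/-. With the replicate block, 5 genes passed in OMD-/- (3472 of all genes), without Zeb1 (adjusted p = 0.0750) and with Snai1 (-0.54, adjusted p = 0.0442), and 0 in PRELP-/- (111 of all genes). Between the knockouts the block changed no call of the 10 genes, and 0 passed.

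Some values changed sign, none of them a call. In OMD-/- these were Twist1 (0.0034 with the block, 0.090 with Y transcripts as a covariate, 0.0018 in libraries without them, 0.11 with close pairs summed, -0.16 to 0.11 on leaving out 1 library) and Esrp1 (-0.041 with total counts). In PRELP-/- they were Zeb1 (-0.16 with total counts, -0.0029 with the block, -0.098 with close pairs summed, -0.073 to 0.28 on leaving out 1), Zeb2 (-0.12, -0.054, -0.11, and -0.093 to 0.40), Snai1 (-0.020 with total counts) and Esrp1 (-0.12 with total counts). Between the knockouts they were Zeb1, Zeb2, Twist2 and Tcf4 with the Y covariate (0.19, 0.23, -0.12 and 0.19), Twist2 and Esrp2 with total counts (-0.0064 and -0.044), Esrp1 with limma-voom (0.14), Esrp2 with close pairs summed (-0.10), and on leaving out 1 library Snai2 (-0.073 to 0.23), Twist2 (-0.021 to 0.15), Esrp1 (-0.083 to 0.086) and Esrp2 (-0.076 to 0.16). Between the knockouts Zeb1, Zeb2 and Tcf4 were not near 0 in the reported fit (-0.37, -0.43 and -0.30). Of 480 values of single genes under alternatives, 403 kept direction and side of the threshold.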
